A study of Mus musculus with 16 samples.

Results

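The RNA of 2 lineages of classical dendritic cell (cDC) was compared in wild-type mouse spleen: cDC1, sorted as Dec205 cells, and cDC2, sorted as Esamlo and Esamhi cells. The comparison used 6 of the 16 libraries of the series, 2 in each of the 3 groups Dec205 WT, Esamlo WT and Esamhi WT. The cDC2 level was the mean of the Esamlo and Esamhi groups on the log2 scale, with equal weight. Members were chosen by genotype and sorted subset, not by a measured value. All 3 groups carry the WT genotype of a study of Etv6, an ETS-family transcription factor, and are untreated as far as the labels state. The CKO groups of the same subsets, called Etv6-deficient in the design text, served only as a second set of libraries. The labels do not give the age of the mice, the Cre driver, the sort gates or whether replicates were separate animals. Adjusted p-values therefore reflect only how these libraries vary, and that variation may be technical.

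Both lineages take up antigen and present it to T cells, and both depend on the cytokine Flt3L. In mouse spleen, cDC1 are known for high Irf8 and Batf3, for the chemokine receptor Xcr1 and the dead-cell receptor Clec9a, and for presenting material from dead cells on MHC class I to CD8+ T cells, which is called cross-presentation. The cDC2 carry Sirpa and CD11b, rely on Irf4, and present mainly on MHC class II to CD4+ T cells. ESAM-high cDC2 need Notch2 signalling, and ESAM-low cDC2 hold more monocyte-like transcripts. DEC-205, encoded by Ly75, and ESAM gave the groups their names, so the differences of Ly75 and Esam describe the sort and are no finding.

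The 6 libraries held 14434287 to 19578517 counts, and 12806 to 14657 genes had at least 1 count. Of 24116 genes in the table, 12692 passed the filter on low counts and were tested. The top 10 genes by count held 14.5% to 15.5% of a Dec205 library and 9.19% to 10.7% of a cDC2 library. The first principal component, with 64.5% of the variance, set the Dec205 libraries apart from the 4 cDC2 libraries. Replicate spread, as the biological coefficient of variation, was 38.2% in Dec205, 19.9% in Esamlo and 12.7% in Esamhi. Of 10 defining cDC1 markers 9 were higher in Dec205 and the tenth, Wdfy4, was not called. Of 10 defining cDC2 markers 9 were lower in Dec205, while Tbc1d8 was higher there, and Clec10a and Mgl2 were under 1 CPM (counts per 1e+06 counts, TMM-scaled) in both Esamhi libraries. Marker sums of other cells were given as measured. Red pulp macrophage markers summed to 233 to 261 CPM in Dec205, 620 to 953 in Esamlo and 455 to 722 in Esamhi. Monocyte markers summed to 1442 to 1595 CPM, 4381 to 5031 CPM and 1085 to 1138 CPM in the same order, with F13a1 at 0 in both Dec205 libraries. B cell markers summed to 136 to 306 CPM, plasma cell markers to 280 to 414 CPM and pDC markers to 121 to 194 CPM over the 6 libraries, and no other list passed 65.4 CPM. Without the 3 C1q genes the macrophage sums were 202 to 212 CPM in Dec205, 285 to 323 CPM in Esamlo and 394 to 399.9 CPM in Esamhi, and without Lyz2 the monocyte sums were 786 to 810.2 CPM, 1869 to 1958 CPM and 806 to 883 CPM. Members of both lists went both ways. Of 10 macrophage markers 1 was called higher in Dec205 and 4 lower, and of 12 monocyte markers 3 higher and 5 lower. Adgre1 was at 14.5 and 15.5 CPM in Dec205 against 176 to 330 in the cDC2 libraries. Vcam1 was at 138 and 110 CPM in Dec205 against 26.6 to 51.2 in the cDC2 libraries. The part of these cells in the results below was not tested. In bulk libraries, fewer cells of a type and less RNA per cell cannot be told apart.

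The lineages differed in 5267 of the 12692 tested genes, or 41.5%. In Dec205, 2592 genes (20.4%) were higher and 2675 (21.1%) lower than the cDC2 mean. A fold change of at least 2 was fitted for 1131 of the higher and 1533 of the lower genes, and of at least 8 for 303 and 478. Against Esamlo alone 4386 genes were called (34.6%, with 16.4% higher and 18.2% lower), and against Esamhi alone 4843 (38.2%, with 18.1% higher and 20.1% lower). Without Esamlo replicate 1 or 2 the first count was 2800 or 2415, and without Esamhi replicate 1 or 2 the second was 2522 or 2887. The 2 contrasts share the Dec205 libraries. In both contrasts 1632 genes were higher (12.9%) and 1912 lower (15.1%), or 27.9% in all, so these genes separated cDC1 from either kind of cDC2. Without Esamhi replicate 1 those counts were 964 and 1191, without Esamhi replicate 2 the higher count was 1001, without Esamlo replicate 1 the lower count was 1256, and without Esamlo replicate 2 the counts were 1002 and 1196. The 2 cDC2 groups differed from each other in 647 genes (5.1%, with 2.77% higher and 2.33% lower in Esamhi), and in 115 to 1513 genes when 1 library was left out, fewest without Esamlo replicate 2 and most without Dec205 replicate 1. In 3419 tested genes both Dec205 libraries lay above all 4 cDC2 libraries (26.9%), and in 3612 both lay below (28.5%). The median log2 difference over all tested genes was -0.025, and it was -0.155 when libraries were scaled by their totals alone, so values near 0 depend on the scaling. Of the 5267 calls, 3386 (64.3%) were kept when each library was left out in turn, and none changed direction.

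**Figure D1:**
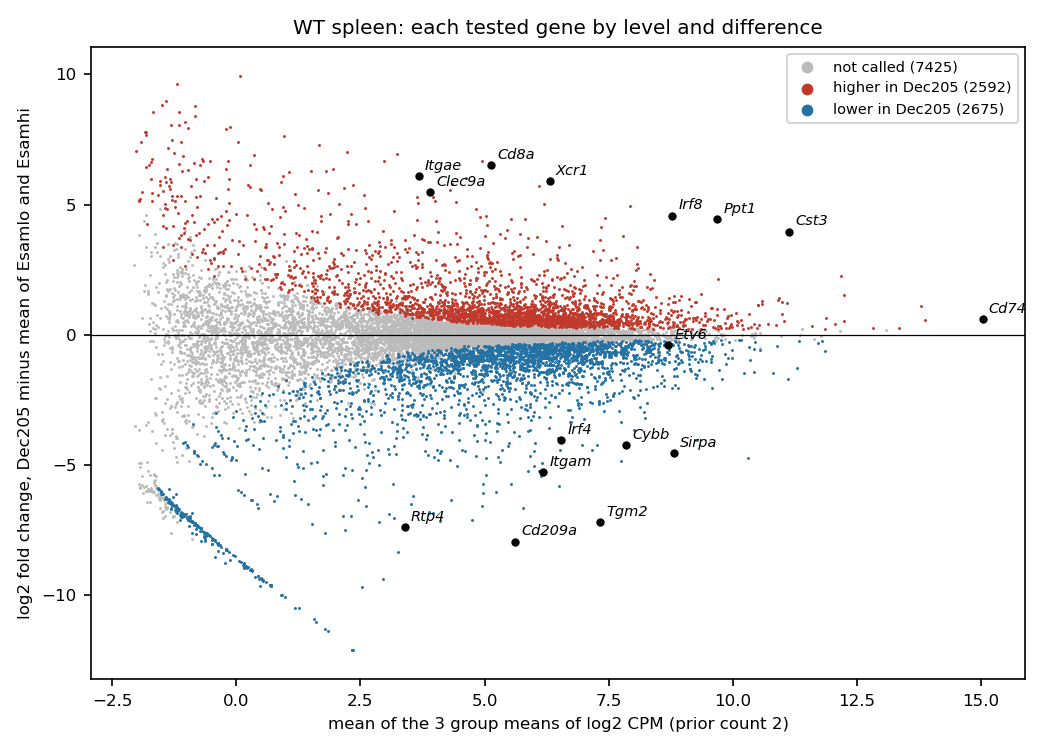
Each point is 1 of the 12692 tested genes, with the mean of the 3 group means of log2 CPM on the x axis and the log2 fold change of Dec205 against the cDC2 mean on the y axis. Red points (2592) were called higher and blue points (2675) lower in Dec205, grey points were not called, and the diagonal streak at the lower left holds genes with 0 counts in both Dec205 libraries, whose fitted values depend on the prior count.

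The genes furthest above cDC2 included the surface receptors by which cDC1 are known. Xcr1 (chr9:123852315-123862029, GRCm38.p6), the receptor for the T cell and NK cell chemokine Xcl1, was at 1250.2 and 1195 CPM in the Dec205 libraries, 27.9 and 32.0 in the Esamlo libraries and 16.2 and 11.4 in the Esamhi libraries. Every Dec205 library exceeded every cDC2 library by far, and the level was 60.2-fold higher (log2 5.91, SE 0.13, adjusted p = 4.72e-07). Clec9a (chr6:129408862-129424764), which binds exposed actin filaments of dead cells, was at 224 and 209.5 CPM in Dec205, 10.2 and 6.28 in Esamlo and 5.04 and 0.604 in Esamhi. The cDC2 values spread over more than 10-fold among themselves but all stayed far under the Dec205 values, and Clec9a was 44.9-fold higher (log2 5.49, SE 0.48, adjusted p = 0.000135). Cd8a (chr6:71373427-71379171), whose CD8αα form marks spleen cDC1, was at 765 and 680.0 CPM in Dec205, 9.95 and 8.39 in Esamlo and 9.82 and 4.02 in Esamhi and was 90.7-fold higher (log2 6.502, SE 0.27, adjusted p = 5.49e-06). No Dec205 library overlapped the cDC2 range for any of the 3 genes.

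The promoters of these 3 receptors are shown because the genes define cDC1 at the surface and differ by over 40-fold. Each sequence holds the 250 bases before the RefSeq transcription start in GRCm38.p6, 5′ to 3′ on the strand of the gene: chr9:123862030-123862279 on the minus strand for Xcr1, chr6:129408612-129408861 on the plus strand for Clec9a and chr6:71373177-71373426 on the plus strand for Cd8a. Capitals mark matches to 3 motifs searched on both strands: GAAANNGAA, the core of the interferon-stimulated response element that IRF factors bind, GGAANNGAA, the core of the ETS-IRF composite element, and TGANTCA, an AP-1 and BATF site.
Xcr1: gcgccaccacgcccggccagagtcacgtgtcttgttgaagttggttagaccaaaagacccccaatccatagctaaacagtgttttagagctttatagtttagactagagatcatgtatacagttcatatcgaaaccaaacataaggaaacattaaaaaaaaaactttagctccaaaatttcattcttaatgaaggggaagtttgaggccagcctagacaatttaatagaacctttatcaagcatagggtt
Clec9a: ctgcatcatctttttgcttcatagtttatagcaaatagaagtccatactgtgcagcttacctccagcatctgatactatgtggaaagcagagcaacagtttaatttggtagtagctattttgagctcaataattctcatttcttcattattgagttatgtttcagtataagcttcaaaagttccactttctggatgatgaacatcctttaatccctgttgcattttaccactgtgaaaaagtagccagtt
Cd8a: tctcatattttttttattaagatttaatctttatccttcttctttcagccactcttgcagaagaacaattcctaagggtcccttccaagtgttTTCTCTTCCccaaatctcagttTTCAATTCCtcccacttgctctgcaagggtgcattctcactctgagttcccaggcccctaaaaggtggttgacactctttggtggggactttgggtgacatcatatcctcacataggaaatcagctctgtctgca
The Xcr1 and Clec9a windows held none of the 3 motifs. The Cd8a window held GGAANNGAA on the minus strand at positions -157 to -149 and -135 to -127, counted back from the start. Over windows from 250 bases before to 50 after the start, GGAANNGAA was found in 9.42% of 27025 genes, in 9.05% of the 10089 tested genes with a window, in 9.56% of the genes higher in cDC1 and in 10.4% of those lower. A match is a description of the sequence, and no match says only that these letters are not in this window.

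The largest differences upward, by a rule that took the 15 most extreme well-expressed genes in each direction, mixed receptors with genes of the endosome and the secretory pathway. Ttc39a stood at 249.6 and 192 CPM in Dec205, 0.605 and 0.833 in Esamlo and 5.14 and 3.82 in Esamhi, 123-fold higher (log2 6.94, SE 0.19, adjusted p = 1.1e-06), the largest fold of the rule. Itgae, the CD103 integrin chain that binds E-cadherin, stood at 201 and 252 CPM in Dec205, 1.92 and 5.77 in Esamlo and 4.52 and 1.41 in Esamhi, and was 67.9-fold higher (log2 6.08, SE 0.43, adjusted p = 4.8e-05). The 4 cDC2 values of Itgae were uneven but none reached 6 CPM. The endosomal genes were Rab7b, a small GTPase of late endosomes (966 and 961 CPM in Dec205 against 6.75 to 50.3 in the cDC2 libraries, 53.0-fold higher), and Laptm4b, a lysosomal membrane protein (280.2 and 228 CPM in Dec205 against 3.62 to 7.94 in the cDC2 libraries, 47.0-fold higher). Pdia5, a protein disulfide isomerase of the endoplasmic reticulum, was at 294 and 295 CPM in Dec205, 11.05 and 9.93 in Esamlo and 3.58 and 1.81 in Esamhi, 55.4-fold higher. Gcsam, a signalling adaptor of germinal centre B cells, was 65.0-fold higher, and Hepacam2, an adhesion protein of the immunoglobulin family, 34.4-fold higher. The receptors were P2ry14, which senses UDP-sugars (39.4-fold higher), the Wnt receptor Fzd1 (32.9-fold higher) and Tlr12 (39.2-fold higher). Fam149a was 34.9-fold higher. Ifi205 was 32.4-fold higher, but its closely related PYHIN neighbours can share reads, so its own value is uncertain. In each of these 15 genes the adjusted p was at most 0.000135. The rule itself asked for calls and for Dec205 libraries clear of all 4 cDC2 libraries, so neither is a finding about these genes.

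The 15 largest differences downward reached further and held several cDC2 lectins and lectin-like receptors. Cd209a, a mouse homologue of the lectin DC-SIGN, stood at 3.20 and 0.0658 CPM in the Dec205 libraries, 561 and 623 in the Esamlo libraries and 258 and 253 in the Esamhi libraries, so it was nearly absent from Dec205. It was 249-fold lower (log2 -7.96, SE 0.60, adjusted p = 6.23e-05). Tgm2, a protein-crosslinking transglutaminase, was at 4.39 and 7.11 CPM in Dec205, 603 and 651 in Esamlo and 1234 and 1089.5 in Esamhi and was 147-fold lower (log2 -7.20, SE 0.20, adjusted p = 1.17e-06). Esamhi lay above Esamlo for Tgm2, with both far above Dec205. Clec4a4, the DCIR2 lectin bound by the cDC2 antibody 33D1, was at 0.520 and 2.50 CPM in Dec205, 116 and 125 in Esamlo and 187 and 193 in Esamhi and 97.0-fold lower. Mmp12, a macrophage elastase, was 141-fold lower, and Ace, which trims peptides, 121-fold lower. Ace also differed between the cDC2 groups, at 0.744 and 0 CPM in Dec205, 112 and 123 in Esamlo and 15.9 and 15.8 in Esamhi. Itgb3, the β chain of the vitronectin receptor (134-fold lower), Lrp1, a large endocytic receptor (74.0-fold lower), and Ptger3, a receptor for prostaglandin E2 (115-fold lower), were each under 1.3 CPM in both Dec205 libraries. Ctnnd2, a δ-catenin, was 142-fold lower, Dab2ip, which restrains Ras signalling, 92.2-fold lower, and Bex6 113-fold lower. Rtp4, an interferon-induced chaperone of receptors, was at 0.744 and 0 CPM in Dec205, 41.5 and 63.1 in Esamlo and 61.9 and 81.0 in Esamhi and was 170.3-fold lower (log2 -7.41, SE 0.62, adjusted p = 0.000105). Sirpb1a, Sirpb1b and Klra17 were 102-fold, 68.3-fold and 81.3-fold lower, with near-identical family members that may share their reads.

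**Figure D2:**
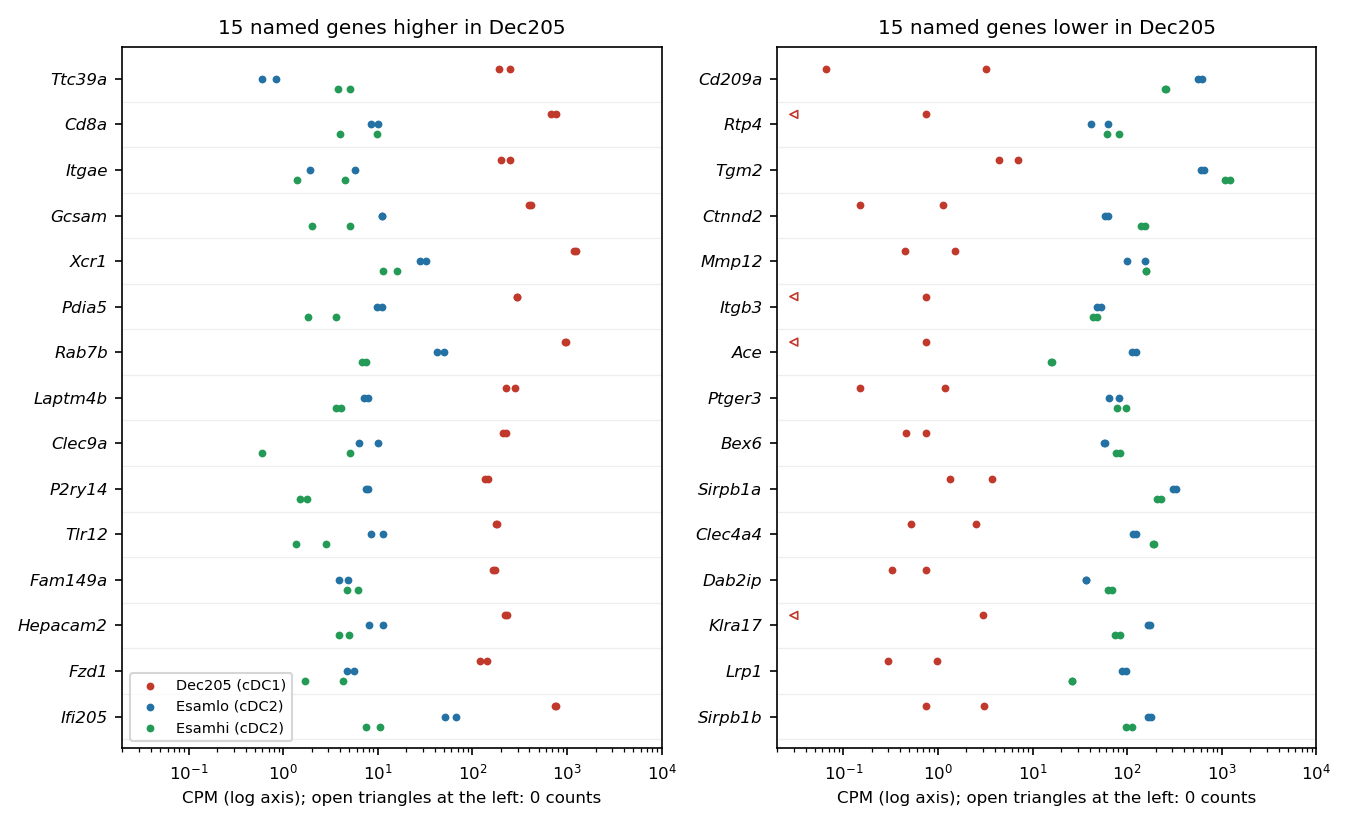
CPM on a log axis of the 15 genes furthest above (left) and the 15 furthest below (right) the cDC2 mean, with 1 point per library: red for Dec205, blue for Esamlo and green for Esamhi. Open triangles stand for 0 counts. In every row the red points lie clear of the blue and green points, which the rule for choosing the genes required. Fold changes run from 32.4-fold to 123-fold on the left and from 68.3-fold to 249-fold on the right.

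Among 40 transcription factors of DC development, all of them tested, 8 were higher and 21 lower in Dec205. Over all tested genes 20.4% were higher and 21.1% lower, so the higher share was no larger among the factors. Their median log2 difference was -0.47 against -0.025 over all genes. Irf8, which cDC1 need to form, stood at 3759 and 3512 CPM in the Dec205 libraries, 320.2 and 277 in the Esamlo libraries and 81.1 and 73.8 in the Esamhi libraries. Dec205 exceeded every cDC2 library by over 10-fold, and Irf8 was 23.9-fold higher (log2 4.58, SE 0.082, adjusted p = 2.39e-07). The Esamlo level was itself above the Esamhi level, so Irf8 was 12.2-fold higher than Esamlo and 47.0-fold higher than Esamhi. Irf4, the related factor of cDC2, showed the opposite order at 21.1 and 8.42 CPM in the Dec205 libraries, 161 and 163 in the Esamlo libraries and 410.2 and 337 in the Esamhi libraries. Its lowest level was in Dec205 and its highest in Esamhi, and it was 16.8-fold lower (log2 -4.07, SE 0.35, adjusted p = 0.00012). Id2, an inhibitor of E proteins, was at 2159.7 and 2341 CPM in Dec205, 365 and 477 in Esamlo and 518 and 741 in Esamhi and was 4.37-fold higher (log2 2.13, SE 0.15, adjusted p = 5.17e-05). Mycl, a Myc family member that cDC use in place of Myc, was 4.13-fold higher (log2 2.05, SE 0.099, adjusted p = 9.45e-06). Batf3, the factor that sustains Irf8 in cDC1, differed far less, at 157 and 132 CPM in Dec205, 70.9 and 61.2 in Esamlo and 76.0 and 97.5 in Esamhi, 1.91-fold higher (log2 0.93, SE 0.14, adjusted p = 0.00167). The Batf3 ranges did not overlap, but the higher Esamhi library came near the lower Dec205 library. Irf5 was 2.15-fold higher. Without Esamhi replicate 1, 5 factors were called higher.

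The factors lower in cDC1 included the main regulators of cDC2. Tbx21 (T-bet) was at 6.32 and 6.84 CPM in Dec205, 65.7 and 42.5 in Esamlo and 102 and 86.9 in Esamhi, and was 10.8-fold lower (log2 -3.44, SE 0.24, adjusted p = 4.11e-05). Zeb2, which cDC2 and plasmacytoid DC need, was at 19.0 and 31.4 CPM in Dec205, 269.6 and 331 in Esamlo and 181 and 169.6 in Esamhi, and was 9.07-fold lower (log2 -3.18, SE 0.22, adjusted p = 4.34e-05). Every Dec205 value lay under every cDC2 value for both genes. Klf4 (4.79-fold lower, adjusted p = 0.000289) and the C/EBP factor Cebpb (5.32-fold lower, adjusted p = 0.00048) followed, with Cebpb higher in Esamlo than in Esamhi. Ikzf1 (Ikaros) was 3.31-fold lower and Spib 3.50-fold lower. All 3 Runx genes and their partner were lower: Runx2 2.86-fold, Runx3 2.06-fold, Runx1 1.46-fold and Cbfb 1.59-fold. Runx1 was called against Esamlo (adjusted p = 0.00327) and not against Esamhi (adjusted p = 0.133). Etv6 (chr6:134035700-134270158), the gene under study, was at 330.4 and 365 CPM in Dec205, 412 and 494 in Esamlo and 479 and 437 in Esamhi in these WT libraries. The lowest cDC2 library lay above both Dec205 libraries, and Etv6 was 1.31-fold lower (log2 -0.39, SE 0.098, adjusted p = 0.0167), a call lost without Dec205 replicate 1 (adjusted p = 0.0508) or Esamhi replicate 1 (adjusted p = 0.053). Its relative Etv3 lay between the cDC2 groups at 519 and 534 CPM in Dec205, 425 and 408 in Esamlo and 879.9 and 800.5 in Esamhi. Some factors shared by all cDC differed, such as Mycl above, but Zbtb46 and Spi1 (PU.1) did not pass the test. Zbtb46 was at 198 and 169.9 CPM in Dec205, 167 and 119.5 in Esamlo and 247 and 194 in Esamhi. Its log2 difference was 0.049 (SE 0.16, adjusted p = 0.833), and that of Spi1 was 0.0052 (SE 0.070, adjusted p = 0.961).

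**Figure D3:**
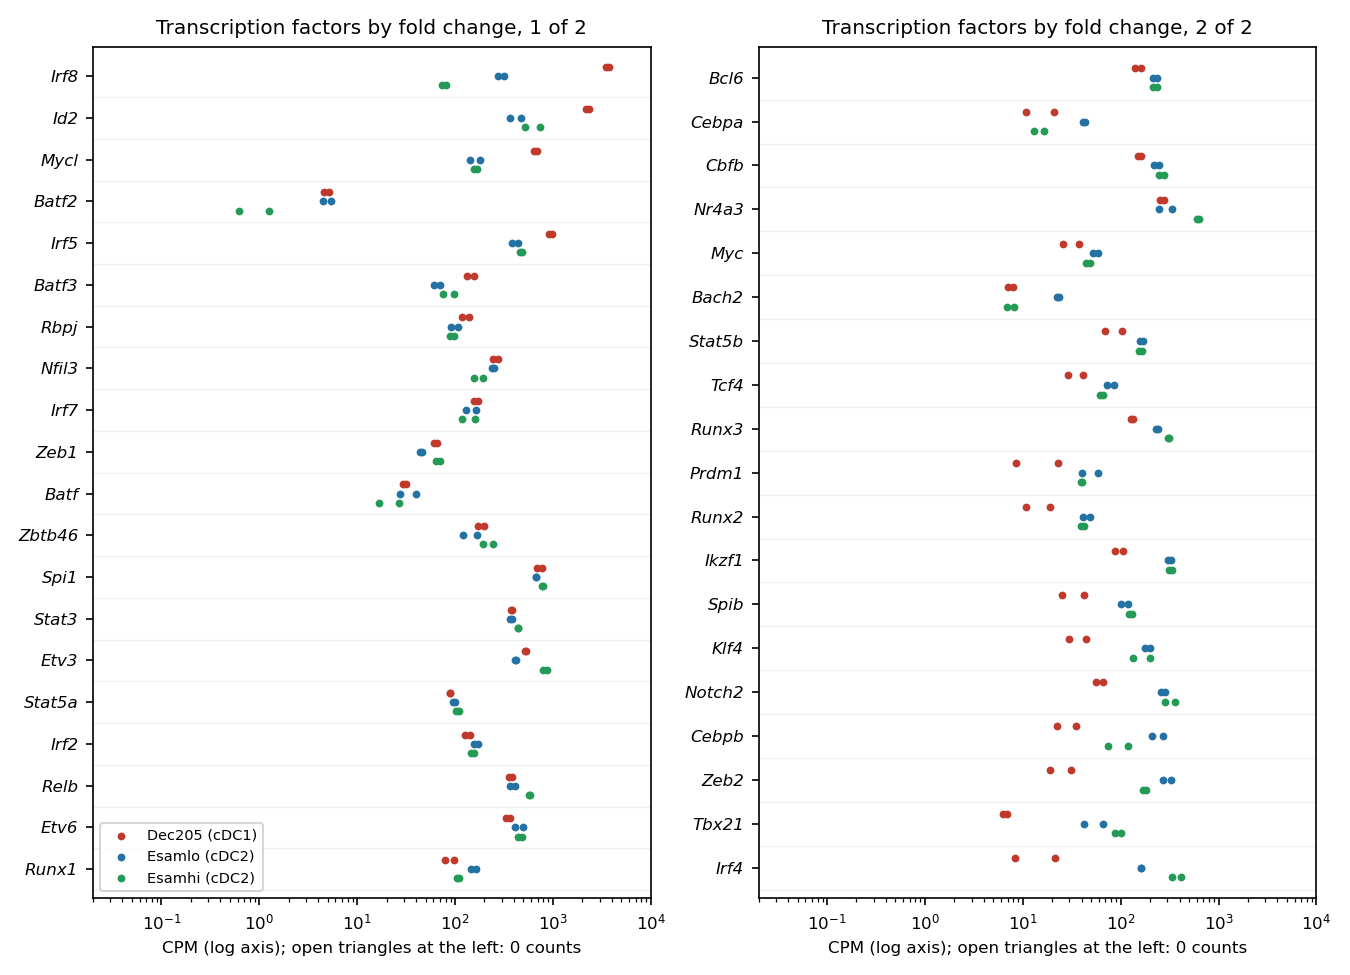
CPM on a log axis of 39 of the transcription factors, ordered by log2 fold change from the top of the left panel to the foot of the right panel, with 1 point per library in red (Dec205), blue (Esamlo) or green (Esamhi). Irf8 is first with red points at 3759 and 3512 CPM in Dec205 against 73.8 to 320.2 in the cDC2 libraries, and Irf4 is last with red points at 21.1 and 8.42 CPM in Dec205 against 161 to 410.2 in the cDC2 libraries.

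Lists of identity genes, which earlier work chose because they differ between the lineages, are given as a check of the sort. Of 28 tested cDC1 identity genes 26 were higher and none lower, with a median log2 difference of 4.50. The uncalled members were Wdfy4, at 710.1 and 815 CPM in Dec205, 579.8 and 462 in Esamlo and 946 and 727 in Esamhi, and Adam23, which lay between the cDC2 groups. Wdfy4, which cross-presentation of cell-bound antigen requires, thus differed by a log2 of 0.21 (SE 0.13, adjusted p = 0.258) and overlapped the Esamhi range. Beyond the receptors above, Naaa, an acid amidase of lysosomes, was 31.1-fold higher, Ppt1, a lysosomal thioesterase, 21.8-fold, and Cadm1, an adhesion molecule, 18.2-fold. Btla, an inhibitory receptor, was 7.21-fold higher, and Snx22, a sorting nexin, 14.8-fold. Of 25 tested cDC2 identity genes 21 were lower and 2 higher, with a median of -3.18. Sirpa (chr2:129591042-129632228), which binds the signal CD47, was at 33.2 and 78.8 CPM in the Dec205 libraries, 1296 and 1286 in the Esamlo libraries and 1438 and 1290.2 in the Esamhi libraries. The 2 Dec205 libraries differed by over 2-fold between themselves and remained more than 15-fold under the lowest cDC2 library, and Sirpa was 23.6-fold lower (log2 -4.56, SE 0.35, adjusted p = 7.32e-05). Itgam (CD11b) was 39.0-fold lower (log2 -5.28, SE 0.27, adjusted p = 1.15e-05) and S100a4, a calcium-binding protein, 57.0-fold lower (log2 -5.83, SE 0.16, adjusted p = 1.08e-06). Cd4, carried by ESAM-high cDC2 in particular, was at 6.39 and 12.4 CPM in Dec205, 121 and 96.7 in Esamlo and 285 and 258 in Esamhi and was 18.1-fold lower (log2 -4.18, SE 0.27, adjusted p = 3.49e-05). The 2 exceptions were Tbc1d8, at 679 and 643 CPM in Dec205, 329 and 294 in Esamlo and 433 and 423 in Esamhi, and Clec12a, a receptor for uric acid crystals, at 228 and 217 CPM in Dec205, 135 and 148 in Esamlo and 12.8 and 24.2 in Esamhi. Clec12a was 11.996-fold higher than Esamhi and not called against Esamlo (adjusted p = 0.0773).

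The remaining lists were set beside the background of all tested genes, of which 20.4% were higher and 21.1% lower. These shares stand beside every list count below, and a count near them is no trait of the list. The shares of members called higher were largest for MHC class I loading (16 of 21) and oxidative phosphorylation (21 of 31), where no member was lower. The shares called lower were largest for Fc receptors with the SIRP family (13 of 18) and for cytosolic sensors (12 of 18). Lists in which calls fell to both sides included integrins (12 higher and 10 lower of 25), MHC class II presentation (9 and 11 of 25) and immediate-early with heat shock genes (8 and 8 of 27). When libraries were scaled by their totals alone, the counts were 16 higher and 2 lower for MHC class I loading, 15 and 0 for oxidative phosphorylation and 5 and 9 for the immediate-early and heat shock genes.

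**Figure D4:**
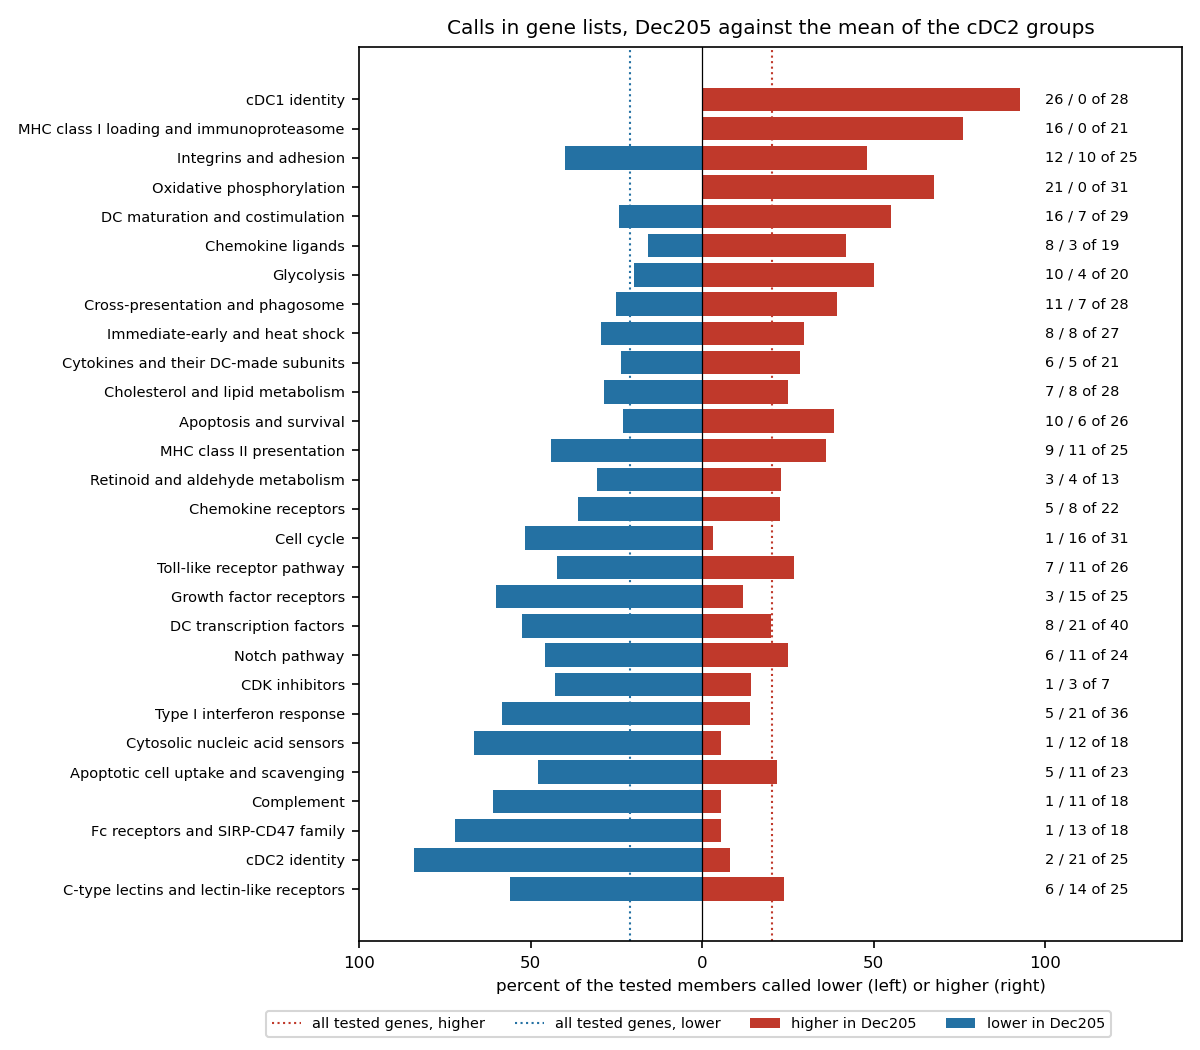
Percent of the tested members of 28 gene lists that were called higher (red, to the right) or lower (blue, to the left) in Dec205 than in the cDC2 mean, ordered by the median log2 fold change; dotted lines mark the shares over all tested genes (20.4% and 21.1%). Counts at the right give higher, lower and tested members, such as 16, 0 and 21 for MHC class I loading.

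Pattern-recognition lectins had the lowest median of the 29 lists, close to the -3.18 of the cDC2 identity list. The lectin list shares members with the identity lists, among them Cd209a, Clec4a4, Clec10a, Mgl2 and Clec9a, and it holds Ly75, which names the sort. Its median is therefore not separate from the check of the sort. Of 25 tested C-type lectins and related receptors, 6 were higher and 14 lower, with a median log2 difference of -3.23, or -3.20 with genes at 0 set to their bound. Cd207 (langerin), which binds mannose, was the most raised: 64.2 and 56.9 CPM in Dec205, 0.275 and 0 in Esamlo and 1.04 and 0.151 in Esamhi, 199-fold higher (log2 7.64, SE 0.56, adjusted p = 5.72e-05). Clec2i was 2.84-fold higher and Clec1a 2.96-fold higher, the latter called against Esamhi and not against Esamlo (adjusted p = 0.236). On the other side, Clec7a (Dectin-1), a receptor for fungal β-glucan, was at 67.0 and 69.2 CPM in the Dec205 libraries, 1105 and 1087 in the Esamlo libraries and 348 and 367 in the Esamhi libraries. Esamlo was above Esamhi and both were above Dec205 without overlap, and Clec7a was 9.19-fold lower (log2 -3.20, SE 0.076, adjusted p = 5.38e-07). Clec4n (Dectin-2), which binds fungal mannans, was at 2.97 and 1.38 CPM in Dec205 against 55.2 to 65.7 in the cDC2 libraries, 28.0-fold lower at an adjusted p of 2.91e-05. Clec4e (Mincle) was at 0 and 0 CPM in Dec205, 10.5 and 15.5 in Esamlo and 2.80 and 2.67 in Esamhi, at least 56.9-fold lower when 3 counts over both libraries stand for 0. Clec4g was also at 0 in Dec205 and at least 50.8-fold lower. The Clec4a genes Clec4a1, Clec4a2 and Clec4a3 were 29.8-fold, 33.3-fold and 8.83-fold lower, with shared sequence that makes each value uncertain, and Clec4a3 was not called without Dec205 replicate 1 (adjusted p = 0.0539). Mgl2, a lectin of macrophages, was found mainly in Esamlo, at 0.818 and 0.132 CPM in Dec205, 27.2 and 25.0 in Esamlo and 0.675 and 0.956 in Esamhi.

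Of 18 tested Fc receptor and signalling genes 13 were lower and 1 higher in cDC1, with a median of -1.58. Fcer1g, the γ chain shared by Fc receptors and several lectins, was at 31.6 and 59.7 CPM in Dec205, 515 and 585 in Esamlo and 363 and 460.5 in Esamhi and was 10.4-fold lower (log2 -3.38, SE 0.27, adjusted p = 8.99e-05). Syk, the kinase these chains recruit, was 3.92-fold lower (log2 -1.97, SE 0.17, adjusted p = 0.00012), and Tyrobp (DAP12), a similar adaptor, 2.02-fold lower. For all 3 genes, every Dec205 value was under every cDC2 value. Fcgr3 was at 3.64 and 8.03 CPM in Dec205, 58.6 and 68.7 in Esamlo and 7.06 and 5.99 in Esamhi, and it was called against Esamlo (adjusted p = 0.000427) and not against Esamhi (adjusted p = 0.769). Fcgr4 was at 12.7 and 37.6 CPM in Dec205, 91.2 and 242 in Esamlo and 34.8 and 145 in Esamhi, higher in the second replicate of all 3 groups, and its call held in the fit without Esamhi replicate 1 alone (adjusted p from 0.0565 to 0.399 in the other 5). Fcgr1, the high-affinity receptor, was at 0.149 and 1.84 CPM in Dec205, 3.85 and 5.25 in Esamlo and 0.519 and 1.21 in Esamhi and had a log2 difference of -0.98 (SE 0.94, adjusted p = 0.443). The gene higher in cDC1 was Fcgrt, the neonatal Fc receptor that recycles IgG and steers it through endosomes, at 230.4 and 223 CPM in Dec205, 101 and 81.0 in Esamlo and 66.0 and 63.4 in Esamhi, 2.95-fold higher (log2 1.56, SE 0.11, adjusted p = 4.04e-05).

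Receptors for dead cells and scavenger receptors fell on both sides, 5 higher and 11 lower of 23 tested. The higher share was near the 20.4% over all tested genes, of which 21.1% were lower. Besides Clec9a, the higher genes were Cd36, a receptor for oxidised lipids and dead cells (499 and 417 CPM in Dec205, 48.8 and 40.5 in Esamlo and 14.96 and 5.18 in Esamhi, 21.6-fold higher), Scarb1 (2.12-fold), Havcr2 (TIM-3, 1.85-fold) and Anxa1 (2.64-fold). Each of these 5 was called against both cDC2 groups. The lower genes included Lrp1, Itgb3 and Cd300lf, a phosphatidylserine receptor (22.2-fold lower), and Msr1 (scavenger receptor A), which was at 0 in Dec205 and at least 47.5-fold lower. Axl, a receptor kinase that binds phosphatidylserine through Gas6, was at 3.79 and 2.90 CPM in Dec205, 55.8 and 50.9 in Esamlo and 3.32 and 14.99 in Esamhi. It was lower than the cDC2 mean (adjusted p = 0.00921), a call lost without Dec205 replicate 1 (adjusted p = 0.0665) or replicate 2 (adjusted p = 0.0807), and not called against Esamhi (adjusted p = 0.11). Without Dec205 replicate 1 or Esamlo replicate 2 the number of lower genes was 6.

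Genes of cross-presentation and the phagosome went in both directions. Of 28 tested members 11 were higher and 7 lower, with a median of 0.17. The small GTPases Rab32 (506 and 477 CPM in Dec205, 139 and 143 in Esamlo and 75.5 and 79.9 in Esamhi, 4.69-fold higher at an adjusted p of 1.68e-06) and Rab43 (1.52-fold higher), and the Sec61 translocon subunit Sec61a1 (2.00-fold higher, adjusted p = 4.64e-05), were higher in cDC1. The NADPH oxidase, which makes phagosomal superoxide, had subunit genes on both sides. Its catalytic subunit Cybb (gp91phox) was at 27.9 and 36.9 CPM in the Dec205 libraries, 765 and 765 in the Esamlo libraries and 489 and 499.9 in the Esamhi libraries. That was the widest gap of the list to the low side, 18.9-fold lower (log2 -4.24, SE 0.13, adjusted p = 1.71e-06), with Dec205 far under every cDC2 library. The GTPase Rac2, which activates the complex, was 2.12-fold lower (log2 -1.08, SE 0.082, adjusted p = 6.24e-05). In contrast Ncf4 was 1.39-fold higher (log2 0.47, SE 0.095, adjusted p = 0.00629), the membrane partner Cyba had a log2 difference of 0.15 (SE 0.068, adjusted p = 0.119), and Ncf1 lay between the cDC2 groups. Tfeb, a regulator of lysosome genes, was 2.06-fold lower, Lnpep, an endosomal peptidase, 2.28-fold lower, and Ifi30, a thiol reductase of lysosomes, 1.75-fold lower. Sec22b, a SNARE of the route from endoplasmic reticulum to phagosome, had a log2 difference of 0.30 (SE 0.11, adjusted p = 0.0726).

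Most of the route of peptide loading on MHC class I was higher in cDC1. Of 21 tested genes 16 were higher and none lower, with a median log2 difference of 1.03, against 20.4% higher over all genes, and each of the 16 was called against both cDC2 groups. Tap1, a subunit of the peptide transporter, was at 867 and 914 CPM in the Dec205 libraries, 365 and 363 in the Esamlo libraries and 350.2 and 349.8 in the Esamhi libraries. Dec205 exceeded all 4 cDC2 libraries, and Tap1 was 2.49-fold higher (log2 1.32, SE 0.060, adjusted p = 7.42e-06). The other transporter subunit Tap2 was 2.50-fold higher, and the loading factors Tapbp (tapasin), Tapbpl (TAPBPR), Pdia3 and Calr were 2.00-fold, 3.04-fold, 2.93-fold and 2.05-fold higher. The immunoproteasome subunits Psmb9 and Psmb8 were 2.71-fold higher (log2 1.44, SE 0.077, adjusted p = 1.37e-05) and 2.41-fold higher, and the activator subunits Psme1 and Psme2 2.42-fold and 2.52-fold. The standard proteasome subunits Psmb5, Psmb6 and Psmb7, which those replace, were also higher, by 1.84-fold, 1.72-fold and 2.10-fold. Nlrc5, the transactivator of MHC class I genes, was 1.90-fold higher (log2 0.93, SE 0.12, adjusted p = 0.000783), and Irf1 2.41-fold higher (log2 1.27, SE 0.074, adjusted p = 1.92e-05). The light chain B2m did not pass against the cDC2 mean, at 4920.0 and 4734 CPM in Dec205, 4742 and 5088 in Esamlo and 3694 and 4292 in Esamhi, a log2 difference of 0.12 (SE 0.074, adjusted p = 0.223). Neither did the immunoproteasome subunit Psmb10, at a log2 of 0.24 (SE 0.092, adjusted p = 0.0709), or the trimming peptidase Erap1, at -0.20 (SE 0.11, adjusted p = 0.197).

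MHC class II genes were mixed, 9 higher and 11 lower of 25 tested, with a median of -0.09. H2-Ab1 was 1.48-fold higher and the invariant chain Cd74 1.498-fold higher, at 46785 and 40868 CPM in Dec205, 31315 and 30951 in Esamlo and 27295 and 27688 in Esamhi, and H2-Eb1 was not called, at a log2 difference of 0.18 (SE 0.062, adjusted p = 0.0572). H2-Aa was 1.21-fold higher, a call (adjusted p = 0.00873) that was lost when libraries were scaled by totals alone (adjusted p = 0.0781). The peptide exchange factor genes H2-DMa and H2-DMb1 were 1.4996-fold and 1.58-fold higher, whereas its modulator genes H2-Oa and H2-Ob were 1.35-fold and 1.31-fold lower. The exchange factor gene H2-DMb2 was 1.53-fold lower, so the DM genes went both ways. Shared reads make the values of H2-DMb1 and H2-DMb2 uncertain. The nonclassical H2-Eb2 was at 31.5 and 24.5 CPM in Dec205, 95.2 and 78.2 in Esamlo and 208 and 234 in Esamhi, 4.96-fold lower. Of the endosomal proteases, Ctss was 1.52-fold lower, Ctsh 1.47-fold lower, Ctsz 1.28-fold lower and Ctsd 2.90-fold lower. Ctsb was 1.25-fold higher at an adjusted p of 0.0378, a call lost without Dec205 replicate 1, Dec205 replicate 2, Esamlo replicate 1 or Esamhi replicate 1 (adjusted p from 0.0508 to 0.11), and Lgmn had a log2 difference of -0.076 (SE 0.19, adjusted p = 0.773). Cst3 (cystatin C), an inhibitor of cysteine proteases, was at 14787 and 13197 CPM in the Dec205 libraries, 1250.2 and 1128 in the Esamlo libraries and 652 and 699 in the Esamhi libraries. Dec205 was over 10-fold above every cDC2 library, and Cst3 was 15.6-fold higher (log2 3.96, SE 0.073, adjusted p = 2.39e-07). The transactivator Ciita did not differ past the test, at a log2 of -0.088 (SE 0.089, adjusted p = 0.465).

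Toll-like receptors for different ligands differed in opposite directions. Of 26 tested genes of the pathway 7 were higher and 11 lower. Tlr3, which binds double-stranded RNA in endosomes, was at 247 and 288 CPM in the Dec205 libraries, 17.3 and 18.7 in the Esamlo libraries and 7.84 and 6.64 in the Esamhi libraries, 23.5-fold higher (log2 4.55, SE 0.12, adjusted p = 8.29e-07). Tlr11 and Tlr12, which detect profilin of protozoa, were 10.4-fold higher (log2 3.38, SE 0.16, adjusted p = 9.4e-06) and 39.2-fold higher (log2 5.29, SE 0.23, adjusted p = 6.34e-06). For each of the 3 receptors both Dec205 libraries were above all cDC2 libraries. Unc93b1, the chaperone that brings endosomal receptors to their compartment, was 1.41-fold higher. The receptors of single-stranded RNA were lower: Tlr7 was at 1.86 and 17.1 CPM in Dec205, 67.4 and 91.0 in Esamlo and 118 and 150.3 in Esamhi, 10.7-fold lower (log2 -3.42, SE 0.68, adjusted p = 0.00648), and Tlr8 was 8.43-fold lower (log2 -3.08, SE 0.51, adjusted p = 0.00274). The 2 Dec205 values of Tlr7 were far apart and still under every cDC2 value. Tlr5, the flagellin receptor, was at 0 and 0 CPM in Dec205, 29.2 and 23.7 in Esamlo and 46.5 and 35.4 in Esamhi, at least 314-fold lower. The lipopeptide receptors Tlr1, Tlr2 and Tlr6 were 7.79-fold, 3.13-fold and 3.46-fold lower, and Tlr13, which reads bacterial ribosomal RNA, 1.66-fold lower. Tlr9, the DNA receptor, was at 2.16 and 7.57 CPM in Dec205, 5.99 and 8.14 in Esamlo and 5.92 and 7.70 in Esamhi, a log2 difference of -0.51 (SE 0.51, adjusted p = 0.467). Of the adaptors, Ticam2 (TRAM) was 10.5-fold lower, while Myd88 and Ticam1 had log2 differences of 0.27 (SE 0.11, adjusted p = 0.086) and 0.38 (SE 0.20, adjusted p = 0.167). Without Esamlo replicate 1, 4 genes were called higher.

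Cytosolic sensors were lower in cDC1 in 12 of 18 tested genes and higher in 1, with a median of -0.88. Ddx58 (RIG-I), a sensor of viral RNA ends, was at 2.68 and 7.76 CPM in the Dec205 libraries, 73.3 and 88.3 in the Esamlo libraries and 101 and 115 in the Esamhi libraries. Both Dec205 libraries stayed far under all 4 cDC2 libraries, and Ddx58 was 17.7-fold lower (log2 -4.14, SE 0.38, adjusted p = 0.000165). Ifih1 (MDA5), which reads long double-stranded RNA, was 4.11-fold lower (log2 -2.04, SE 0.17, adjusted p = 0.000102). Their shared adaptor Mavs was 1.74-fold lower, and Tmem173 (STING), the adaptor of cytosolic DNA sensing, 2.14-fold lower at an adjusted p of 0.000133. Of the inflammasome genes, Nlrc4 was 14.2-fold, Nlrp3 4.34-fold, Aim2 2.16-fold and Casp1 2.06-fold lower. Nod1, a sensor of bacterial cell walls, was at 31.6 and 54.2 CPM in Dec205, 196 and 189 in Esamlo and 355 and 323 in Esamhi and 5.94-fold lower. The kinase Tbk1 and the factor Irf3, on which several of these routes converge, had log2 differences of 0.26 (SE 0.098, adjusted p = 0.069) and 0.22 (SE 0.12, adjusted p = 0.168). The 1 higher gene, Ifi204, belongs to the PYHIN family and was not called without Dec205 replicate 2 (adjusted p = 0.056), Esamhi replicate 1 (adjusted p = 0.0566) or Esamlo replicate 1 (adjusted p = 0.0889).

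**Figure D5:**
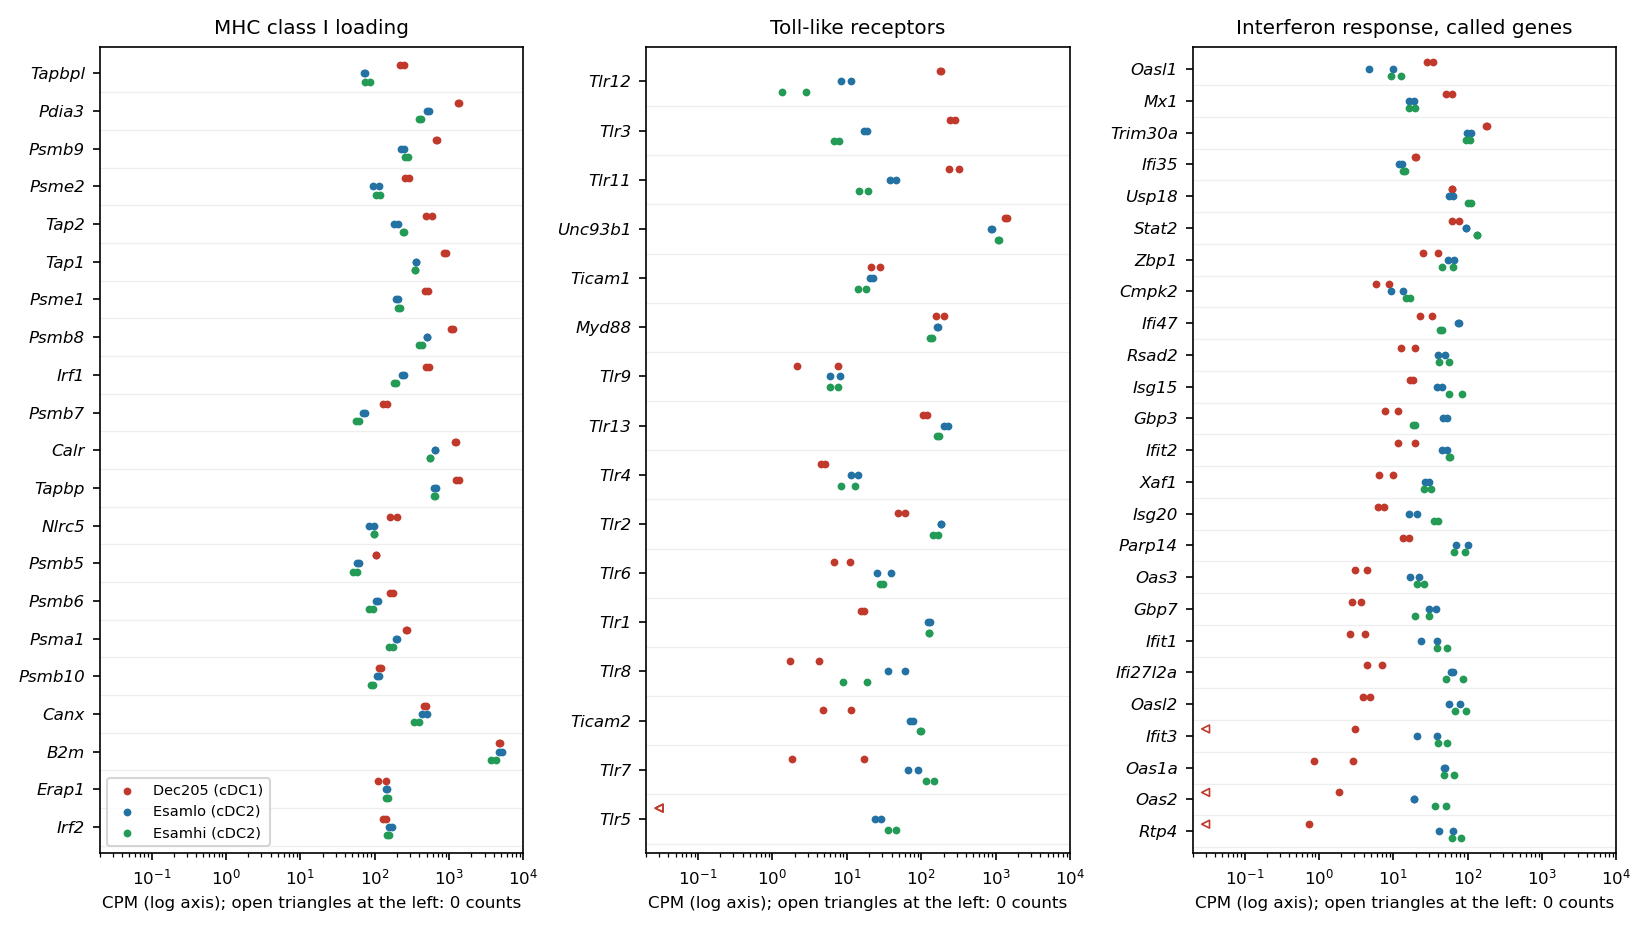
CPM on a log axis of the MHC class I loading genes (left), the Toll-like receptors with their adaptors (middle) and called genes of the type I interferon response (right), with 1 point per library in red (Dec205), blue (Esamlo) or green (Esamhi) and open triangles for 0 counts. Red points lie to the right for Tap1 (867 and 914 CPM in Dec205 against 349.8 to 365 in the cDC2 libraries) and Tlr3 (247 and 288 CPM in Dec205 against 6.64 to 18.7 in the cDC2 libraries) and to the left for Ifit1 (2.60 and 4.21 CPM in Dec205 against 23.6 to 52.7 in the cDC2 libraries).

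Interferon-stimulated genes were lower in cDC1 in 21 of 36 tested members and higher in 5, with a median of -0.85. Ifit3, which holds viral RNA with its relatives, was at 0 and 3.03 CPM in the Dec205 libraries, 21.1 and 38.5 in the Esamlo libraries and 40.5 and 53.6 in the Esamhi libraries. It was not detected in the first Dec205 library, and it was 23.8-fold lower (log2 -4.57, SE 0.86, adjusted p = 0.00491). Ifit1 was 10.9-fold lower (log2 -3.45, SE 0.34, adjusted p = 0.000234) and Ifit2 3.38-fold lower. The 2′-5′ oligoadenylate synthetases, which activate RNase L, were lower as well: Oas2 at 1.86 and 0 CPM in Dec205, 19.2 and 18.8 in Esamlo and 36.5 and 50.6 in Esamhi, 32.0-fold lower, and Oas3 5.66-fold lower. Oas1a was 28.4-fold lower, but near-identical Oas1 copies may share its reads. Oasl2 was at 3.87 and 4.93 CPM in Dec205 against 55.3 to 96.0 in the cDC2 libraries, 16.8-fold lower (log2 -4.07, SE 0.27, adjusted p = 3.81e-05), whereas its paralogue Oasl1 was at 34.2 and 28.6 CPM in Dec205, 4.67 and 9.80 in Esamlo and 9.19 and 12.7 in Esamhi, 3.53-fold higher (log2 1.82, SE 0.31, adjusted p = 0.00299). Isg15, a ubiquitin-like modifier, was at 16.7 and 18.7 CPM in Dec205, 39.1 and 45.4 in Esamlo and 56.8 and 83.9 in Esamhi, 3.08-fold lower at an adjusted p of 0.000701. The higher genes besides Oasl1 included Mx1 (3.18-fold), Trim30a (1.73-fold) and Ifi35, the last of which lost its call in each of the 6 fits without 1 library (adjusted p from 0.0533 to 0.151). Stat2, a subunit of the interferon-activated complex, was 1.63-fold lower (log2 -0.71, SE 0.12, adjusted p = 0.00262), while its partner Irf9 had a log2 difference of -0.091 (SE 0.12, adjusted p = 0.579). Of the receptor chains, Ifnar2 was 1.90-fold lower and Ifnar1 had a log2 difference of -0.28 (SE 0.13, adjusted p = 0.135). Leaving out 1 library gave 18 to 20 lower calls.

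The promoters of 2 of these genes, picked after their values were known, show how the response element core can lie repeated before a start. They are the 250 bases before the RefSeq start in GRCm38.p6, at chr19:34583279-34583528 on the plus strand for Ifit3 and chr4:156200819-156201068 on the minus strand for Isg15, 5′ to 3′ on the strand of the gene, with capitals for the motifs named above.
Ifit3: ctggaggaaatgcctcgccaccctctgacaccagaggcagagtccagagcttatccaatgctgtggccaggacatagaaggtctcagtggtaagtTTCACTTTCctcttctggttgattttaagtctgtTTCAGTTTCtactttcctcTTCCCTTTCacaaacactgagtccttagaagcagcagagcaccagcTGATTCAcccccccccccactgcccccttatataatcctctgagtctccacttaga
Isg15: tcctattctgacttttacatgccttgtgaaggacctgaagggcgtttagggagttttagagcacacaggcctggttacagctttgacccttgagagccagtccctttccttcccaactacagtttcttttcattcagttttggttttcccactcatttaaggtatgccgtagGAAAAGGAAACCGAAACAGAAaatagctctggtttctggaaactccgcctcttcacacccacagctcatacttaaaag
In Ifit3, GAAANNGAA lay on the minus strand from -155 to -147, from -121 to -113 and from -102 to -94, and TGANTCA from -56 to -50. In Isg15, 3 overlapping copies of GAAANNGAA on the plus strand ran from -78 to -58. Over the longer windows, GAAANNGAA was found in 9.76% of 27025 genes, in 9.08% of the 10089 tested genes with a window, in 9.42% of the genes higher in cDC1 and in 11.3% of the genes lower. Among members of the interferon list with a window, it was found in 9 of 15 lower members, 1 of 3 higher members and 5 of 9 uncalled members. These shares were 60%, 33.3% and 55.6%.

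Chemokine receptors and related chemoattractant receptors differed in both directions. Of 22 tested receptors 5 were higher, near the 20.4% over all tested genes, and 8 lower, against 21.1% over all. Ccr7, which guides DC to the T cell zone, was at 3612 and 3630.0 CPM in the Dec205 libraries, 1016 and 989.5 in the Esamlo libraries and 2106 and 2543 in the Esamhi libraries. Its order was Dec205, then Esamhi, then Esamlo, without overlap, and it was 2.37-fold higher (log2 1.25, SE 0.078, adjusted p = 2.91e-05). Cxcr3, which follows Cxcl9 and Cxcl10, was at 91.3 and 103 CPM in Dec205, 8.03 and 5.51 in Esamlo and 4.21 and 1.91 in Esamhi, 21.3-fold higher (log2 4.41, SE 0.27, adjusted p = 2.74e-05). Ccr9, a gut and thymus homing receptor that pDC also carry, was 7.35-fold higher (log2 2.88, SE 0.32, adjusted p = 0.00045). On the low side, Gpr183 (EBI2), which places cDC2 in the bridging channels of the spleen, was at 63.0 and 75.3 CPM in Dec205, 279 and 264 in Esamlo and 409 and 372 in Esamhi, 4.71-fold lower (log2 -2.24, SE 0.11, adjusted p = 9.45e-06). Ccr6, the receptor of Ccl20, was 9.25-fold lower, Cxcr4 3.27-fold lower and Ccrl2 2.47-fold lower. Ccr1, a receptor of Ccl3 and Ccl5, was at 0 and 0 CPM in Dec205, 32.7 and 31.8 in Esamlo and 6.49 and 6.69 in Esamhi, at least 139-fold lower, and S1pr3, a sphingosine phosphate receptor, was at least 37.2-fold lower. Ccr2, a monocyte receptor, lay between the cDC2 groups at 25.4 and 27.8 CPM in Dec205, 168 and 158 in Esamlo and 6.96 and 6.69 in Esamhi.

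Of 19 tested chemokine ligands 8 were higher and 3 lower, with a median of 0.41. Cxcl9, a ligand of Cxcr3 induced by interferon γ, was at 393 and 276 CPM in the Dec205 libraries, 73.3 and 55.1 in the Esamlo libraries and 13.9 and 6.44 in the Esamhi libraries, 13.1-fold higher (log2 3.71, SE 0.27, adjusted p = 5.82e-05). Both Dec205 values lay well above the highest cDC2 value. Cxcl16, a membrane-bound ligand of Cxcr6, was at 745 and 693 CPM in Dec205 against 185 to 250.4 in the cDC2 libraries, 3.36-fold higher (log2 1.75, SE 0.073, adjusted p = 5.49e-06). Ccl5 was 3.72-fold higher, Ccl22, which attracts regulatory T cells, 8.91-fold higher, and the monocyte attractants Ccl2 and Ccl7 10.8-fold and 23.7-fold higher. Ccl9 was at 1.64 and 2.50 CPM in Dec205, 139 and 127 in Esamlo and 15.2 and 21.0 in Esamhi and 23.4-fold lower, and Ccl6 2.58-fold lower, called against Esamlo and not against Esamhi (adjusted p = 0.809). Ccl3 was 3.98-fold lower and Ccl4 lay between the cDC2 groups. Neighbouring chemokine genes overlap or resemble each other, so the values of Ccl3, Ccl4, Ccl6 and Ccl9 are uncertain.

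Cytokine genes were few in number but wide in range, 6 higher and 5 lower of 21 tested. Il12b, the p40 subunit of interleukin 12 that drives Th1 responses, was at 1122 and 1103 CPM in the Dec205 libraries, 31.5 and 54.5 in the Esamlo libraries and 77.0 and 108 in the Esamhi libraries. Dec205 exceeded all cDC2 libraries by over 10-fold, and Il12b was 17.7-fold higher (log2 4.14, SE 0.21, adjusted p = 1.15e-05). The p35 subunit gene Il12a was under the filter. Il15 and its presenting receptor chain Il15ra, which support CD8+ T and NK cells, were 6.47-fold higher (log2 2.69, SE 0.20, adjusted p = 5.44e-05) and 7.93-fold higher (log2 2.99, SE 0.14, adjusted p = 9.29e-06). Csf1 was 4.33-fold higher. Il1b was at 949.7 and 1058 CPM in Dec205, 3941 and 3836 in Esamlo and 2554 and 2972 in Esamhi, 3.27-fold lower (log2 -1.71, SE 0.087, adjusted p = 1.16e-05), and its antagonist Il1rn was 24.6-fold lower (log2 -4.62, SE 0.80, adjusted p = 0.00328). Ltb, a lymphotoxin subunit, was 7.72-fold lower (log2 -2.95, SE 0.23, adjusted p = 7e-05), and Tgfb1 1.87-fold lower. Tnf was at 109 and 49.3 CPM in Dec205, 46.3 and 46.6 in Esamlo and 211 and 183 in Esamhi, with a log2 difference of -0.27 (SE 0.28, adjusted p = 0.472), and Il6 at a log2 of 1.03 (SE 0.37, adjusted p = 0.0641). Without Dec205 replicate 1, 9 genes of this list were called lower.

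Growth factor receptors were mostly lower in cDC1: 15 of 25 tested were lower and 3 higher, with a median of -0.39. Flt3, the receptor on which all cDC depend, was at 670.2 and 699.7 CPM in Dec205, 488 and 477 in Esamlo and 425 and 439 in Esamhi, 1.4999-fold higher (log2 0.58, SE 0.061, adjusted p = 0.000289). The α chain of the GM-CSF receptor Csf2ra was 1.56-fold higher (log2 0.64, SE 0.10, adjusted p = 0.00244) while its β chain Csf2rb, whose near-identical copy Csf2rb2 may share reads, was 1.31-fold lower (log2 -0.39, SE 0.083, adjusted p = 0.00796). Csf1r, the receptor of monocytes and macrophages, was at 8.63 and 38.4 CPM in the Dec205 libraries, 788 and 776 in the Esamlo libraries and 264 and 251 in the Esamhi libraries. Even the higher Dec205 library was over 6-fold under the lowest cDC2 library, and Csf1r was 18.9-fold lower (log2 -4.24, SE 0.53, adjusted p = 0.000729). Kit was 1.67-fold lower, Il6ra 3.005-fold lower, Il2rg 2.98-fold lower and the TGF-β receptor genes Tgfbr1 and Tgfbr2 2.46-fold and 1.46-fold lower. Il1r2, a decoy receptor of interleukin 1, was at 23.2 and 14.1 CPM in Dec205 against 244 to 609 in the cDC2 libraries, 21.7-fold lower at an adjusted p of 3.6e-05. Ifngr1 was 1.42-fold higher and its partner Ifngr2 had a log2 difference of 0.14 (SE 0.082, adjusted p = 0.202).

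In the Notch pathway 6 genes were higher and 11 lower of 24 tested. Notch2, whose signal ESAM-high cDC2 need, was at 55.4 and 66.7 CPM in the Dec205 libraries, 283 and 256 in the Esamlo libraries and 360.2 and 282 in the Esamhi libraries, 4.81-fold lower (log2 -2.27, SE 0.14, adjusted p = 2.99e-05). Notch4 went the other way, at 126 and 122 CPM in Dec205, 5.99 and 3.91 in Esamlo and 5.76 and 8.25 in Esamhi, 20.9-fold higher (log2 4.39, SE 0.20, adjusted p = 7.78e-06). The ligand gene Jag2 was 11.7-fold higher (log2 3.55, SE 0.27, adjusted p = 6.91e-05). Dtx1 (Deltex1), a Notch target, was at 5.58 and 5.59 CPM in the Dec205 libraries, 96.0 and 101 in the Esamlo libraries and 613 and 603 in the Esamhi libraries. The 3 groups stood far apart, and it was 43.8-fold lower (log2 -5.45, SE 0.10, adjusted p = 2.39e-07), or 17.6-fold lower than Esamlo and 109-fold lower than Esamhi. The Mastermind coactivator genes Maml1 and Maml3 were 4.18-fold and 24.1-fold lower. Maml2 was 2.39-fold higher at an adjusted p of 0.0442, a call lost without Dec205 replicate 2, Esamlo replicate 1, Esamhi replicate 1 or Esamhi replicate 2 (adjusted p from 0.0597 to 0.133). The protease Adam10, which cuts Notch at the surface, was 2.43-fold lower. Rbpj, the DNA-binding partner of Notch, was at 118 and 139 CPM in Dec205 against 88.7 to 106 in the cDC2 libraries and was not called without Dec205 replicate 2, Esamhi replicate 1, Esamhi replicate 2 or Esamlo replicate 2 (adjusted p from 0.0531 to 0.098). Without Esamhi replicate 1, 2 genes were higher and 7 lower in this list, and without Esamhi replicate 2, 3 were higher.

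Genes of DC maturation and costimulation were higher in cDC1 in 16 of 29 tested members and lower in 7, with a median of 0.43. Cd86, a costimulatory ligand of CD28, was at 581 and 579 CPM in the Dec205 libraries, 133 and 143 in the Esamlo libraries and 174 and 189.6 in the Esamhi libraries. Dec205 exceeded each cDC2 library by about 3-fold or more, and Cd86 was 3.65-fold higher (log2 1.87, SE 0.072, adjusted p = 4.06e-06). Its relative Cd80 was at 92.6 and 79.8 CPM in Dec205, 103 and 108 in Esamlo and 174 and 167 in Esamhi, 1.56-fold lower (log2 -0.64, SE 0.10, adjusted p = 0.00218), so the 2 ligands of CD28 differed in opposite directions. Cd80 was called against Esamhi (adjusted p = 0.000542) and not against Esamlo (adjusted p = 0.0899). The ligands of PD-1 were both lower: Cd274 (PD-L1) 2.32-fold lower (log2 -1.21, SE 0.095, adjusted p = 7.73e-05) and Pdcd1lg2 (PD-L2) 3.40-fold lower (log2 -1.77, SE 0.18, adjusted p = 0.000263). Fscn1 (fascin), an actin bundler of mature DC, was at 1007 and 801 CPM in Dec205, 146 and 99.4 in Esamlo and 316 and 413 in Esamhi, 4.27-fold higher (log2 2.09, SE 0.17, adjusted p = 9.96e-05). Cd200, an inhibitory ligand, was 5.71-fold higher, Socs2 4.57-fold, Cd40 1.80-fold and Icam1 1.88-fold higher. Ido1, which degrades tryptophan, was at 2.68 and 4.67 CPM in Dec205, 0 and 0 in Esamlo and 0.104 and 0.151 in Esamhi, at least 34.6-fold higher. The NF-κB subunit gene Nfkb1 was at 89.9 and 78.2 CPM in Dec205, 475 and 438 in Esamlo and 427 and 442 in Esamhi, 5.30-fold lower (log2 -2.41, SE 0.095, adjusted p = 4.82e-06), while Nfkb2 had a log2 difference of -0.11 (SE 0.083, adjusted p = 0.339) and Relb was 1.27-fold lower.

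Integrin and adhesion genes went in both directions, 12 higher and 10 lower of 25 tested. Higher integrin chains were Itgae, which binds E-cadherin and is given above, Itga8 (47.7 and 24.2 CPM in Dec205, 10.8 and 5.64 in Esamlo and 0.364 and 0.503 in Esamhi, 18.9-fold higher at an adjusted p of 0.000166) and the collagen-binding Itga1. Itga1 had means of 12.3 CPM in Dec205, 1.41 in Esamlo and 0 in Esamhi. It was 8.74-fold above Esamlo and at least 161-fold above Esamhi, or at least 37.5-fold above their mean on the log2 scale. Itgb1 was 1.68-fold higher and the tetraspanins Cd81 and Cd9 5.63-fold and 2.43-fold higher. Itgb7, the partner chain of Itgae, was at 269 and 277 CPM in Dec205, 354 and 345 in Esamlo and 324 and 283 in Esamhi and 1.19-fold lower at an adjusted p of 0.0397, and it was not called in 5 of the 6 fits that left out 1 library, all but that without Esamhi replicate 2 (adjusted p from 0.0588 to 0.102). Itgax (CD11c), the usual surface marker of DC, was at 315 and 292 CPM in Dec205, 849.9 and 839 in Esamlo and 905 and 841 in Esamhi, 2.83-fold lower (log2 -1.500, SE 0.072, adjusted p = 9.09e-06), and Itgad was 3.36-fold lower. Itga4 was 1.58-fold lower and Cadm3 42.5-fold lower. Of genes that act on the cytoskeleton, Cotl1, a coactosin-like actin-binding protein, was at 75.5 and 84.4 CPM in Dec205 against 349.5 to 373 in the cDC2 libraries, 4.54-fold lower (log2 -2.18, SE 0.086, adjusted p = 4.35e-06), and the membrane linker Msn (moesin) was 1.85-fold lower (log2 -0.89, SE 0.062, adjusted p = 4.21e-05). The Rac regulators Dock2 and Dock8 were 1.47-fold and 1.69-fold lower and Was 1.74-fold lower. Arhgap22, a GTPase-activating protein for Rac, was 4.78-fold higher (log2 2.26, SE 0.090, adjusted p = 4.82e-06), and the actin remodelling genes Arpc2 and Cfl1 were 1.77-fold and 1.43-fold higher.

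Apoptosis genes were higher in 10 and lower in 6 of 26 tested, with a median of 0.0018. Fas, a death receptor, was at 72.3 and 66.1 CPM in Dec205, 9.95 and 11.3 in Esamlo and 12.8 and 18.0 in Esamhi, 5.41-fold higher (log2 2.44, SE 0.17, adjusted p = 4.71e-05). Casp6, an executioner caspase, was 3.20-fold higher, and Bid, which links death receptors to mitochondria, 2.38-fold higher. The survival gene Bcl2l1 (Bcl-xL) was 2.92-fold higher (log2 1.55, SE 0.19, adjusted p = 0.00073), whereas Bcl2 was 1.87-fold lower (log2 -0.90, SE 0.18, adjusted p = 0.00556) and Xiap, a caspase inhibitor, 2.23-fold lower (log2 -1.15, SE 0.16, adjusted p = 0.00103). Bcl2 was called against Esamlo (adjusted p = 0.00259) and not against Esamhi (adjusted p = 0.0662). Without Esamhi replicate 1, 6 genes were called higher.

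Genes of energy metabolism were more often higher than lower in cDC1. Of 20 tested glycolysis genes 10 were higher and 4 lower. Pfkp, a phosphofructokinase, was at 299.8 and 298 CPM in the Dec205 libraries, 77.0 and 79.7 in the Esamlo libraries and 42.3 and 44.4 in the Esamhi libraries. The Dec205 libraries nearly coincided and lay over 3-fold above cDC2, and Pfkp was 5.13-fold higher (log2 2.36, SE 0.078, adjusted p = 1.97e-06). Pfkfb3, which makes its activator, was 3.51-fold higher (log2 1.81, SE 0.11, adjusted p = 2.17e-05), and Ldha, which reduces pyruvate to lactate, 1.93-fold higher (log2 0.94, SE 0.062, adjusted p = 3.18e-05). The 4 lower genes encode the transporters and the first enzyme of the pathway. The glucose transporters Slc2a1 and Slc2a3 were 2.33-fold and 53.3-fold lower, with Slc2a3 at 4.61 and 2.04 CPM in Dec205, 134 and 129 in Esamlo and 253 and 213 in Esamhi, the lactate exporter Slc16a3 was 2.89-fold lower and hexokinase Hk1 1.59-fold lower. Of 31 tested nuclear genes of oxidative phosphorylation 21 were higher and none lower, with a median of 0.46. Their differences were small, from 2.08-fold for Uqcrb, a subunit of complex III (102 and 85.5 CPM in Dec205, 54.3 and 52.1 in Esamlo and 36.6 and 39.6 in Esamhi), downwards, and Atp5b, a subunit of ATP synthase, was 1.57-fold higher (log2 0.65, SE 0.058, adjusted p = 0.00013). Against a fold of 1.5 as the null, 1 gene of the list was called, and 15 to 20 were called higher when 1 library was left out. Lipid genes were mixed, 7 higher and 8 lower of 28: Plin2, a coat protein of lipid droplets, was at 249 and 237 CPM in Dec205, 82.4 and 101 in Esamlo and 21.1 and 19.3 in Esamhi, 5.64-fold higher (log2 2.50, SE 0.11, adjusted p = 6.48e-06), while the cholesterol exporter Abca1 was 8.72-fold lower (log2 -3.12, SE 0.46, adjusted p = 0.00152) and the sterol regulator Srebf2 1.92-fold lower (log2 -0.94, SE 0.13, adjusted p = 0.00108). In the retinoid list 3 of 13 tested genes were higher and 4 lower, and Rxra, a retinoid X receptor, was 3.50-fold higher (log2 1.81, SE 0.20, adjusted p = 0.000395). Without Esamhi replicate 1, 2 genes of that list were called lower.

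Proliferation genes were lower in cDC1 in 16 of 31 tested members and higher in 1, with a median of -0.37. Mki67, which marks cycling cells, was at 88.6 and 85.3 CPM in the Dec205 libraries, 165 and 161 in the Esamlo libraries and 206 and 176 in the Esamhi libraries, 2.03-fold lower (log2 -1.02, SE 0.099, adjusted p = 2e-04). Ccnd1 (cyclin D1) was lowest in Dec205 and highest in Esamhi, at 53.2 and 63.0 CPM in Dec205, 268 and 212 in Esamlo and 517 and 394 in Esamhi and was 5.69-fold lower (log2 -2.51, SE 0.17, adjusted p = 3.9e-05), while Ccnd3 had a log2 difference of 0.25 (SE 0.096, adjusted p = 0.0731). Kif11, a spindle motor, was 3.21-fold lower, Ccna2 (cyclin A2) 2.00-fold lower and Top2a 1.87-fold lower. The replication helicase genes Mcm3 and Mcm4 were 1.44-fold and 1.69-fold lower. The higher gene, Cdk1, lost its call without Esamhi replicate 1, Esamhi replicate 2 or Esamlo replicate 2 (adjusted p from 0.0658 to 0.0903). The mitotic genes Ccnb1 and Plk1 did not pass, with log2 differences of -0.069 (SE 0.19, adjusted p = 0.793) and -0.26 (SE 0.17, adjusted p = 0.259). Among the CDK inhibitors, Cdkn2b was at 21.9 and 18.8 CPM in Dec205, 1.26 and 2.63 in Esamlo and 13.2 and 17.1 in Esamhi, 3.75-fold higher (log2 1.91, SE 0.30, adjusted p = 0.00225), and was called against Esamlo and not against Esamhi (adjusted p = 0.387). Cdkn1b (p27) was 2.24-fold lower and Cdkn2d 2.34-fold lower.

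Immediate-early genes, which respond within minutes to handling of cells, were split with the heat shock genes, 8 higher and 8 lower of 27. Jun was at 413 and 479 CPM in Dec205, 1016 and 1048 in Esamlo and 1268 and 1313 in Esamhi, 2.59-fold lower (log2 -1.37, SE 0.080, adjusted p = 2.07e-05), Fosb 2.47-fold lower and Fosl2 5.94-fold lower (log2 -2.57, SE 0.16, adjusted p = 2.43e-05). Fos, Junb and Dusp1 did not pass, with log2 differences of -0.067 (SE 0.052, adjusted p = 0.339), -0.029 (SE 0.076, adjusted p = 0.79) and 0.22 (SE 0.14, adjusted p = 0.244). Klf6 was 1.62-fold higher and the chaperonin gene Hspe1 1.66-fold higher.

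Of 18 tested complement genes 11 were lower and 1 higher. The anaphylatoxin receptor genes C5ar1 and C5ar2 were at 0 in both Dec205 libraries and at least 48.9-fold and 35.1-fold lower. Properdin (Cfp), which stabilises the alternative pathway convertase, was at 158 and 151 CPM in Dec205, 363 and 292 in Esamlo and 456 and 445 in Esamhi, 2.48-fold lower (log2 -1.31, SE 0.10, adjusted p = 8.4e-05). C3, the central component of the cascade, was at 1.41 and 0 CPM in Dec205, 45.4 and 38.4 in Esamlo and 3.74 and 3.07 in Esamhi, 17.4-fold lower (log2 -4.12, SE 0.81, adjusted p = 0.00604), and was not called against Esamhi (adjusted p = 0.0748). The C1q genes, which open the classical pathway, were below the cDC2 mean, C1qa at 4.16 and 13.8 CPM in Dec205, 97.0 and 164 in Esamlo and 11.9 and 65.1 in Esamhi, but higher in the second replicate of every group. C1qa was not called without Dec205 replicate 1 (adjusted p = 0.293), Dec205 replicate 2 (adjusted p = 0.177) or Esamlo replicate 2 (adjusted p = 0.0689), and the same 3 libraries ended the calls of C1qb and C1qc. C1qc was also not called without Esamlo replicate 1 (adjusted p = 0.0641). C1qa, C1qb and C1qc are themselves on the red pulp macrophage marker list. Of its other members, Spic, Hmox1 and Mertk were likewise higher in the second replicate of all 3 groups, with Mertk at most at 7.49 CPM. Vcam1, Adgre1, Slc40a1 and Cd163 were not, and Vcam1 was higher in the first replicate of Dec205 and Esamlo. Without Esamlo replicate 2, 7 genes were called lower.

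The mean of the cDC2 groups hid 26 genes that lay between them, called in opposite directions against Esamlo and Esamhi. In 17 of these Dec205 was above Esamlo and below Esamhi. They included, chosen after their values were seen, Tcf7, a factor of Wnt signalling, at 77.8 and 64.7 CPM in Dec205, 41.8 and 33.2 in Esamlo and 166 and 161 in Esamhi, Egr3 at 290.3 and 264 CPM in Dec205, 155 and 116 in Esamlo and 433 and 366 in Esamhi and Etv3. In the other 9 Dec205 was above Esamhi and below Esamlo. They included Lyz2 (lysozyme), at 809 and 632 CPM in the Dec205 libraries, 3162 and 2424 in the Esamlo libraries and 279 and 255 in the Esamhi libraries, with its near-identical copy Lyz1, Ccr2 and the inhibitory Fc receptor Fcgr2b, at 68.6 and 77.8 CPM in Dec205, 154 and 183 in Esamlo and 19.6 and 23.7 in Esamhi. A further 816 genes were called against Esamlo and not Esamhi, and 1273 against Esamhi and not Esamlo, which does not show that these differences themselves differ.

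The same comparison in the CKO libraries used 6 other libraries and a fit of its own. Etv6 was at 199.5 and 213 CPM in Dec205, 358 and 353 in Esamlo and 376 and 422 in Esamhi there. Each CKO value lay under both WT values of its subset. The CKO values were scaled over 12 libraries and the WT values over 6, so the narrow gap in Esamhi may rest on the scaling. The count covers the whole gene and does not show which exons were read. In CKO, 2871 of 12849 genes were higher (22.3%) and 3019 lower (23.5%), or 45.8% in all. Of the WT calls that could be tested there, 1910 of 2556 higher genes (74.7%) and 1977 of 2653 lower genes (74.5%) were called in the same direction, and 17 and 18 in the opposite direction. Xcr1 was 74.5-fold higher (adjusted p = 5.34e-06) in CKO, Irf8 17.4-fold higher (adjusted p = 1.71e-06), Sirpa 55.4-fold lower (adjusted p = 1.42e-06) and Irf4 8.91-fold lower (adjusted p = 0.000147), and for none of the 4 did the test of the difference between genotypes pass (adjusted p from 0.0967 to 0.632). Over all genes that test called 375 of 13299 (2.82%), 1.09% with a higher value in CKO and 1.73% with a lower value. The 6 WT libraries had 0 to 1.24 CPM of Xist and 102 to 215 CPM of the Y-linked Ddx3y, and the 6 CKO libraries 110 to 343 CPM and at most 1.89 CPM. Genotype and the sex of the cells therefore cannot be told apart, while the 6 WT libraries were alike in both genes.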

How the data were processed

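RNA of sorted spleen DC was amplified with SMART-seq v4, per the labels' protocols, which keeps no strand and no molecular identifiers, so reads of overlapping or antisense genes and PCR copies cannot be separated. Reads were trimmed with Trimmomatic 0.36 and aligned with Bowtie2 2.2.9 to mm10, per the submitters' processing notes; for the counting tool and its annotation, the sources used here name none. The authors deposited whole-number counts per gene for all libraries, without normalization. Gene positions and promoter windows came from RefSeq on GRCm38.p6, matched by Entrez identifier for 24061 of 24116 genes.

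From these counts, log2 fold changes were fitted with edgeR 4.0.16 (R 4.3.3; TMM scaling, filterByExpr, robust quasi-likelihood F test, 3 groups of 2 libraries, 3 residual degrees of freedom), with Benjamini-Hochberg adjustment over all tested genes and genes called where the adjusted p was below 0.05. Standard errors are the size of the log2 fold change over the square root of F. CPM were computed from TMM-scaled totals, and a count of 0 was bounded by a floor of 3 counts, which covers counting error only. Group precision rests on 14434287 to 19578517 counts per library. The fit was tested on simulated data. There it recovered 5 of 48 changes of 1.5-fold, 21 of 47 of 2-fold, 42 of 49 of 4-fold and 43 of 48 of 8-fold. It called 14 of 12067 unchanged genes. The simulation changed far fewer genes than the 5267 called in the data, and it gave all groups the same spread per gene. Its rates need not hold for the data. A gene that was not called may still differ by a small fold.

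The members, the 29 gene lists and the tests were chosen with earlier results of these data known. Named were the 15 largest called differences in each direction at a mean log2 CPM of 3 or more and no overlap between libraries, up to 5 called members per list and direction, 10 preset genes and list members that lay between the cDC2 groups; other list members were named after their values were seen. Gene models without a proper name were skipped, 1 in each direction. Alternatives were other scalings and filters, DESeq2 1.42.0, limma 3.58.1 with voom, a fold of 1.5 as the null, other sets of libraries, a replicate block and each library left out. The pDC libraries were left out of the main fit because the comparison concerns cDC. A few items of the lists are not reported here.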

Additional observations from a re-analysis of the deposited data

Results flagged for a closer look

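In 33 of 258 named genes the difference between cDC1 and cDC2 itself differed between the CKO and the WT libraries, by a test of that difference in edgeR over the 12 libraries of both genotypes (adjusted p from 5.96e-05 to 0.0352; over all genes 375 of 13299 passed, or 2.82%). Most named genes were chosen by their differences in the same WT libraries that enter this test. Their share passing it therefore cannot be set against the share over all genes. Sex-linked genes separate the genotypes in these 12 libraries, so genotype and sex cannot be told apart in these values, which are log2 differences, CKO minus WT.

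Of the 36 tested members of the interferon list 10 passed this test, all with values above 0. Among the named ones it was 5.78 for Rtp4, 4.68 for Ifit3, 3.89 for Oas1a, 3.23 for Oas2 and 1.57 for Oasl2. For Ifit3, the CKO libraries held 36.3 and 39.4 CPM in Dec205, 34.9 and 31.1 in Esamlo and 35.4 and 41.3 in Esamhi, so the low WT level of cDC1 was not repeated there. Rtp4 was at 24.8 and 19.4 CPM in Dec205, 71.0 and 70.1 in Esamlo and 79.1 and 57.4 in Esamhi in CKO. Of the genes furthest below cDC2, the value was 3.87 for Tgm2, 3.94 for Ctnnd2 and 2.36 for Bex6, and among those furthest above it was -1.51 for Laptm4b.

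Of genes that mark cDC2, Esam had -1.84, with Esam naming the sort, and Cd4 had 2.22. Cd4 was at 23.9 and 23.7 CPM in Dec205, 64.2 and 72.8 in Esamlo and 121 and 139 in Esamhi in the CKO libraries, lower in Esamhi and higher in Dec205 than in WT. Tbc1d8 had -0.58 and the transcription factor Etv3 -0.66. The NADPH oxidase gene Cybb had 1.66 and its GTPase Rac2 0.69. Among sensors, Tlr8 had -5.77 and Nod1 -1.41. Tlr8 was at 0 and 0.0629 CPM in Dec205, 33.2 and 32.0 in Esamlo and 10.7 and 5.75 in Esamhi in CKO. With Dec205 that low, the size of its value is uncertain.

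For chemokines and their receptors the value was -0.94 for Ccr7, 1.74 for Ccl3 and 1.65 for Ccl4. It was -2.05 for Notch4, -0.84 for Cd274, -0.72 for Traf1, 0.84 for Anxa1 and 1.85 for Cd300lf. In the metabolic lists it was -1.14 for Pfkfb3, -5.35 for Slc2a3 and -2.11 for Rxra, and for the Rac regulator Arhgap22 it was -0.77. Slc2a3 was at 0.0997 and 0 CPM in Dec205 against 100 to 204 in the cDC2 libraries in CKO, so the size of its value is uncertain. In 4 genes a group was at 0 and no difference is given: the adjusted p was 0.0149 for Clec4e, 0.0137 for Ccr1, 0.0137 for S1pr3 and 0.00205 for Lifr.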

How the results depend on the processing

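No call changed direction under any alternative. Of the 249 named genes that were called, 178 were called under every alternative that tested them (at most 18), 47 lost the call under 1 or 2 and 24 under 3 or more. With a fold of 1.5 as the null, 1114 genes were higher and 1373 lower than the cDC2 mean, 673 higher and 966 lower than both cDC2 groups, 2096 were called against Esamlo, 2337 against Esamhi and 163 between Esamhi and Esamlo, and in CKO 1185 were higher and 1575 lower. Between Esamhi and Esamlo, DESeq2 called 1273 genes and limma voom 1632. When 1 library was left out, the counts ranged from 1789 to 2704 higher, 1830 to 3170 lower, 964 to 1780 higher than both groups, 1191 to 2493 lower than both, 2415 to 5255 against Esamlo, 2522 to 5682 against Esamhi and 115 to 1513 between Esamhi and Esamlo, and in CKO from 1892 to 3334 higher and 2175 to 3728 lower. A group left with 1 library was assumed to vary like the others. The main fit also used the same spread per gene for all 3 groups. Replicate spread was 38.2% in Dec205, 19.9% in Esamlo and 12.7% in Esamhi, so adjusted p-values of contrasts with Dec205 may be too small. Scaled by totals alone, 2090 genes were higher and 3219 lower. The libraries share only a replicate number (correlations of deviations 0.049, 0.018 and 0.14), and with the number as a replicate block 2444 genes were higher and 2583 lower. With windows of 150 bases, GAAANNGAA was found in 4.61% of genes.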

Other observations

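Some of the widest differences lay in genes of low level or outside the themes above. Clnk, an adaptor of immune receptor signalling, was at 22.8 and 25.2 CPM in the Dec205 libraries, 0.330 and 0 in the Esamlo libraries and 0.208 and 0 in the Esamhi libraries, 169.6-fold higher (log2 7.41, SE 0.72, adjusted p = 0.000212). Gpr33, a chemoattractant receptor, was at 44.9 and 36.1 CPM in Dec205, 0.879 and 0 in Esamlo and 0.831 and 0.352 in Esamhi, 76.5-fold higher (log2 6.26, SE 0.63, adjusted p = 0.000255). Both were all but absent from cDC2. Csf3r, the receptor of G-CSF, was 8.42-fold lower (log2 -3.07, SE 0.50, adjusted p = 0.00248).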
